A study of Mus musculus with 27 samples.

Results

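The genes described here are the 36 TNF superfamily ligands and receptors of the mouse, found in the count table by their symbols in the GENCODE M21 annotation. A protein-coding gene was taken when its symbol began with Tnfsf or Tnfrsf and a digit, or when it was Cd27, Cd40, Cd40lg, Cd70, Fas, Fasl, Lta, Ltb or Ltbr. Tnfsf13, Tnfsf13b, Tnfrsf13b and Tnfrsf17 were left out, and Tnf itself is outside this naming rule. All 36 genes were among the 55487 rows of the table, and 26 of them passed the filter used for every test, 10 or more counts in 4 or more libraries, as did 20271 genes in all.

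The study infused male C57Bl/6J wild-type mice, 8 weeks old at the start, through a cannula in the right lateral ventricle for 14 days at 0.25 µl per hour. It asked how patient-derived antibodies to the neuronal surface protein IgLON5 lead to Tau pathology. Gene expression in the brain was a further readout. One group received α-IgLON5#1, an IgG preparation from 1 patient (4 mice with both tissues), so this group speaks for a single preparation. A second group received pCtrl, human control IgG, which the sources describe either as IgG from healthy serum or as a non-reactive monoclonal IgG (5 cortices and 4 hippocampi), and the last group received PBS (5 mice with both tissues). RNA came from the hippocampus and cortex opposite to the cannula, 27 libraries from 14 mice in all, with 19385642 to 58550621 counts per library.

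TNF superfamily ligands are trimeric proteins on the cell surface or released from it, and each binds 1 or a few receptors on neighbouring cells. Receptors with a death domain, such as Fas and Tnfrsf1a, can recruit caspase-8 and cell death machinery. Receptors without one bind TRAF adaptors and signal to the kinases and transcription factors of the NF-κB system. These roles can overlap. Decoy receptors bind ligand without passing on a signal. In the brain, TNF and its receptors are known for their part in microglial and astrocyte responses, and many other members are best known from lymphocytes and antigen-presenting cells.

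The samples are labelled as neurons, but the libraries are of whole tissue. The summed level of 8 microglial marker genes was 286 to 736 CPM (counts scaled to a common library size) in the hippocampus and 325 to 450 CPM in the cortex, and that of 6 astrocyte markers was 2143 to 3742 CPM over both tissues. In bulk tissue, more cells of a type and more RNA per cell cannot be told apart. The library of α-IgLON5#1 mouse 8 stood apart in both tissues. It was the highest of the 4 α-IgLON5#1 libraries for 17 of the 26 tested genes in the hippocampus and for 19 of 26 in the cortex, so that results are also given without it.

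In PBS mice the 6 highest levels of the set were those of receptors. Per kilobase of exon, the level was highest for Tnfrsf21, a death domain receptor of neurons and their precursors, at 23.8 CPM per kilobase in the hippocampus and 18.8 in the cortex. Tnfrsf19, a receptor known from astrocytes and neural progenitors, followed with 13.4 and 17.8 CPM per kilobase. Tnfrsf25, the receptor of Tnfsf15, was at 9.58 and 3.70, and Tnfrsf1a, the widely expressed TNF receptor with a death domain, at 4.36 and 4.25, so that Tnfrsf25 was the higher of the pair in the hippocampus and the lower in the cortex.

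Among the ligands, Tnfsf12, which binds Tnfrsf12a, had the highest level in PBS mice, with 2.43 CPM per kilobase in the hippocampus and 2.51 in the cortex. Tnfsf12 shares exon sequence with the read-through gene Tnfsfm13 on the same strand, so reads of the pair could be split in the counting. The next ligand, Tnfsf10, known for inducing apoptosis through Tnfrsf10b, was at 0.461 and 0.436 CPM per kilobase, and the remaining 12 ligands were under 0.2 in both tissues. In the order of levels, 19 of 25 neighbouring pairs of tested genes had overlapping ranges in the hippocampus and 21 of 25 in the cortex. Tnfsf12 was apart from the next gene, Tnfrsf1b, in both tissues, Tnfrsf21 lay above Tnfrsf19 in the hippocampus alone, and Tnfrsf19 was apart from Tnfrsf1a in the cortex.

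**Figure D1:**
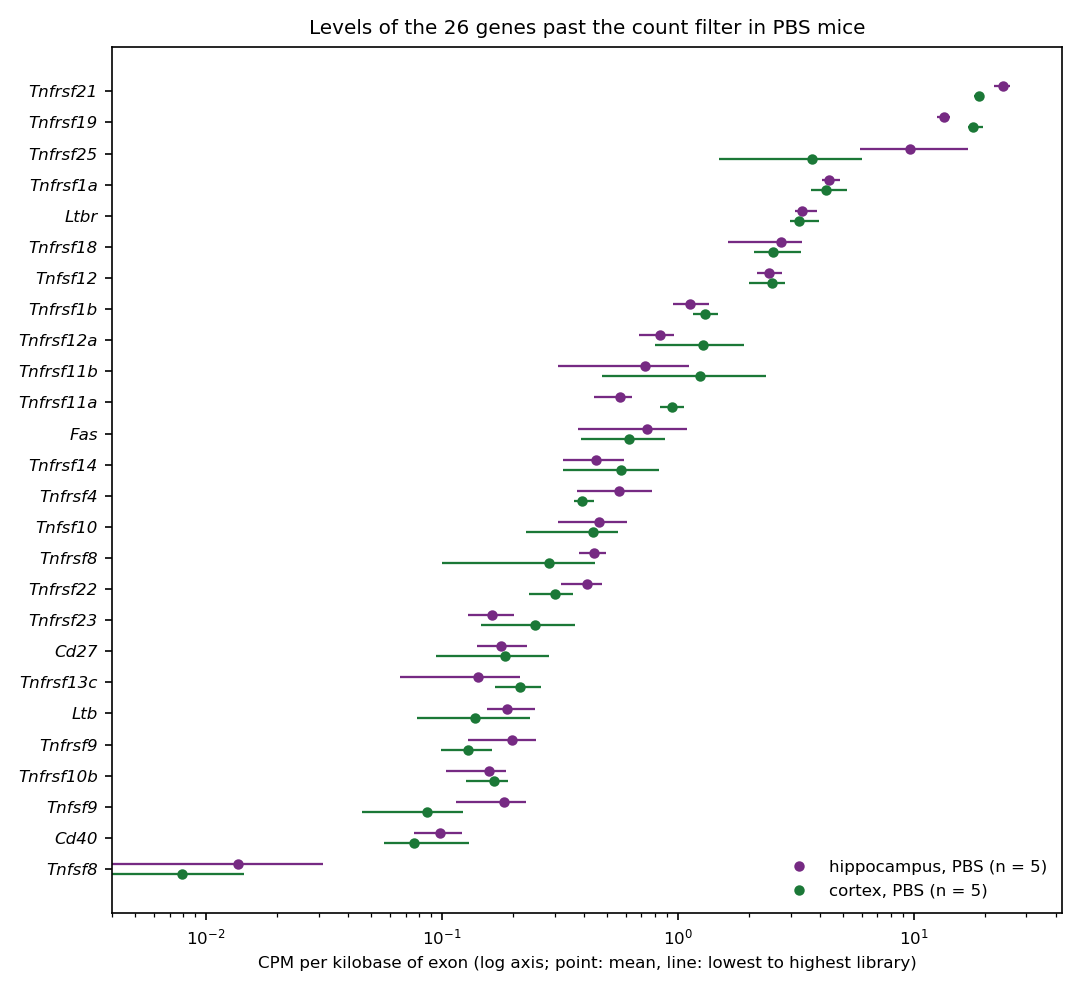
Level of each of the 26 tested genes in the 5 PBS hippocampi and the 5 PBS cortices, in CPM per kilobase of exon on a log axis, with the mean as a point and the lowest to highest library as a line. Lines that leave the plot on the left belong to Tnfsf8, which had 0 counts in 1 library of each tissue, and Tnfrsf21 and Tnfrsf19 have the highest means in both tissues.

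In PBS mice, 5 of the 26 tested genes differed between cortex and hippocampus. Over all genes tested, 14.1% were higher in cortex and 12.7% higher in hippocampus (edgeR quasi-likelihood test, adjusted p under 0.05). Higher in the cortex were Tnfrsf11a, the receptor of the bone-remodelling ligand Tnfsf11, by 0.73 on the log2 scale (adjusted p = 0.000151), Tnfrsf12a by 0.60 (adjusted p = 0.0200) and Tnfrsf19 by 0.41 (adjusted p = 1.58e-05). Higher in the hippocampus were Tnfrsf25, with a log2 difference of -1.37 (adjusted p = 0.00336), and Tnfrsf21, with -0.34 (adjusted p = 2.51e-05).

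The levels of Tnfrsf25 were 38.6, 19.7, 18.4, 19.1 and 13.4 CPM in the 5 PBS hippocampi and 13.7, 6.65, 6.49, 11.9 and 3.41 CPM in the cortices of the same mice. The mouse with the highest hippocampus also had the highest cortex, and every mouse was higher in the hippocampus. With the mouse as a replicate block the comparison called 8 genes, 5 higher in cortex and 3 higher in hippocampus, while 15.2% and 14% of all genes were called in these directions. The additional 3 were all decoy receptors, namely Tnfrsf11b (osteoprotegerin, decoy of Tnfsf11; log2 difference 0.70, adjusted p = 0.0358), Tnfrsf23 (0.59, adjusted p = 0.0418) and Tnfrsf22 (-0.45, adjusted p = 0.0361). The last pair are mouse decoys for Tnfsf10, and Tnfrsf23 overlaps the antisense gene E230032D23Rik, so its counts are uncertain if strand was not used. In the fit without the replicate block, the call of Tnfrsf12a was lost without mouse 14 (log2 difference 0.38, adjusted p = 0.192) or without mouse 33 (0.52, adjusted p = 0.0899).

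In the α-IgLON5#1 hippocampus, 3 receptors rose against pCtrl and no gene of the set fell. These were Tnfrsf1b, the TNF receptor without a death domain, Tnfrsf14, the receptor of Tnfsf14 and lymphotoxin α and partner of the lymphocyte inhibitor BTLA, and Tnfrsf8 (CD30), the receptor of Tnfsf8. All 3 passed the fold threshold of 2 and belong to the 13 TRAF-binding receptors, while 0 of 5 tested ligands, 0 of 5 death domain receptors and 0 of 3 decoy receptors passed by edgeR. The 3 of 26 compare with 4.23% of all tested genes that rose and 2.21% that also passed the fold threshold, and 2.78% of genes fell.

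In the cortex, Tnfrsf1b and Tnfrsf14 rose by more than 2-fold against pCtrl and Tnfrsf19 fell slightly, 3 of 25 genes. The ligand Tnfsf8 also passed the threshold but is left out of this count, since it came through the count filter by α-IgLON5#1 libraries alone. Over all genes, 3.01% rose, 2.14% rose by more than 2-fold and 0.449% fell. Without Tnfsf8, 22 of 25 tested genes in each tissue had a log2 fold change above 0, against 50.3% of all genes in the hippocampus and 48.4% in the cortex. The median log2 fold change of these 25 genes was 0.51 in the hippocampus and 0.33 in the cortex, whereas that of all genes was 0.0012 and -0.0066.

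**Figure D2:**
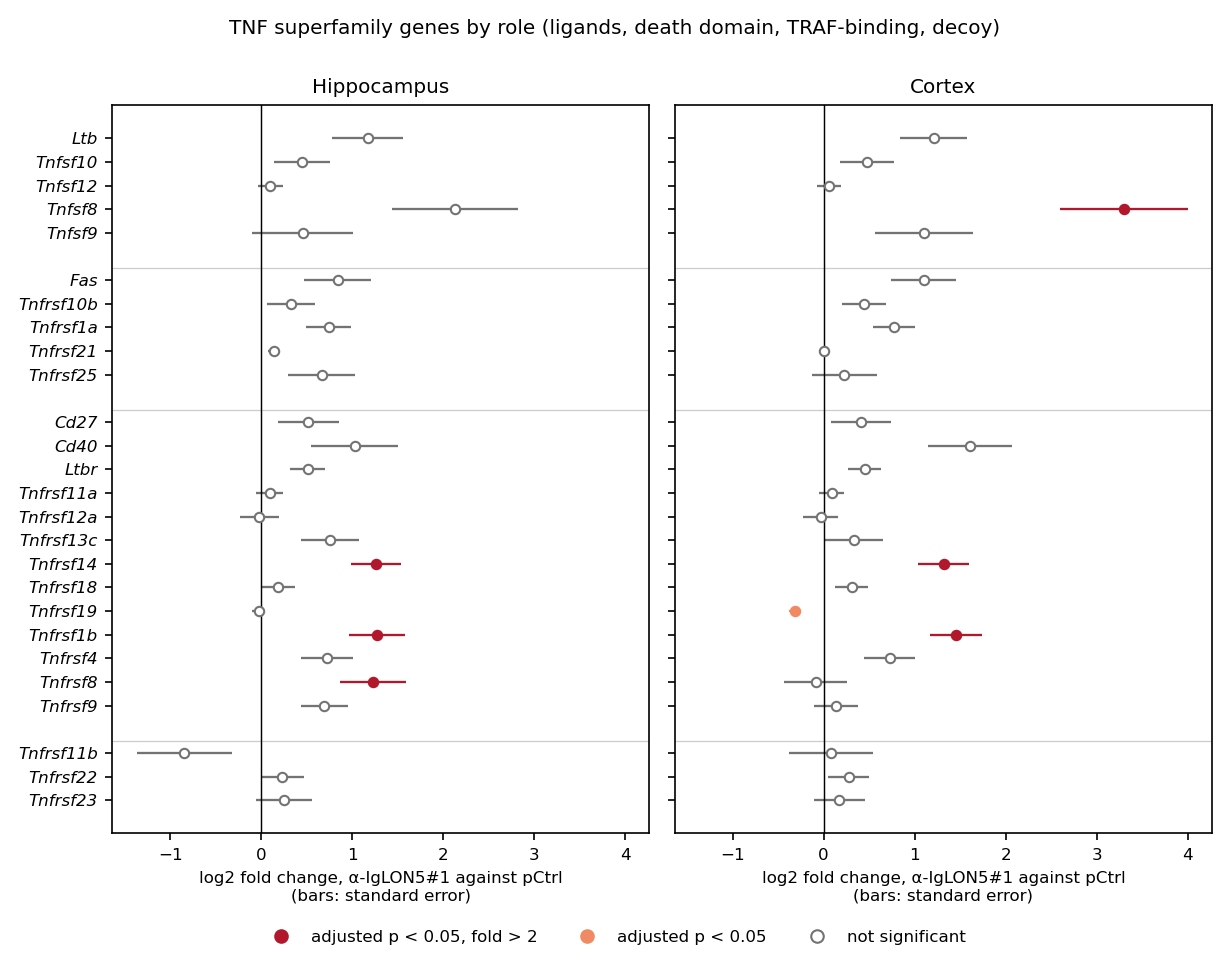
Log2 fold change of α-IgLON5#1 against pCtrl for each tested gene in the hippocampus and the cortex, with standard errors as bars. Genes are grouped from top to bottom as ligands, death domain receptors, TRAF-binding receptors and decoy receptors, and filled points passed an adjusted p of 0.05. Tnfrsf1b and Tnfrsf14 are filled in both tissues, and Tnfsf8, filled in the cortex, was tested through α-IgLON5#1 libraries alone.

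Promoter sequence, from 250 bases before to 50 bases after the RefSeq start (GRCm38.p6), was at hand for 26 of the 36 genes. It is shown for the 4 genes that passed the test in at least 2 comparisons within a tissue, Tnfrsf1b, Tnfrsf14, Tnfsf8 and Ltb. A loose form of the κB motif bound by NF-κB proteins, GGG followed by any 5 bases and CC, was searched on both strands and is in capitals, where overlapping matches form 1 longer run. The sequences run 5′ to 3′ on the strand of the gene, at chr4:145246821-145247120, chr4:154928028-154928327 and chr4:63861235-63861534 (minus strand) and chr17:35194257-35194556 (plus strand).
Tnfrsf1b: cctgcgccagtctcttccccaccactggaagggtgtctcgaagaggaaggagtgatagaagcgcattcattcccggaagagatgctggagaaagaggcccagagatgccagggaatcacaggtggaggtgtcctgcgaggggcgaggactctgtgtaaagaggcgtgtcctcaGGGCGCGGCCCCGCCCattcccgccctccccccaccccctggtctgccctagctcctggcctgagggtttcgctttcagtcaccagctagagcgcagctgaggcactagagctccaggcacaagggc
Tnfrsf14: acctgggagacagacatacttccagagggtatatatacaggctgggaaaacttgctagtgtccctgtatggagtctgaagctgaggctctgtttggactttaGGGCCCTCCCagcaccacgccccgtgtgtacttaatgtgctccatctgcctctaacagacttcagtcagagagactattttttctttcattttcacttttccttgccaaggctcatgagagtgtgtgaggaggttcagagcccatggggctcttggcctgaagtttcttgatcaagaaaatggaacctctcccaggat
Tnfsf8: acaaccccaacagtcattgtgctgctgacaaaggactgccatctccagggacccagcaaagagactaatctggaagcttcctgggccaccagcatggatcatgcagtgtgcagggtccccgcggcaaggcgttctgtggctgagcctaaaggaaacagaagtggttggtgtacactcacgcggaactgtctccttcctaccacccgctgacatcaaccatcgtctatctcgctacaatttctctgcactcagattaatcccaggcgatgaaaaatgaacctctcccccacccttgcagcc
Ltb: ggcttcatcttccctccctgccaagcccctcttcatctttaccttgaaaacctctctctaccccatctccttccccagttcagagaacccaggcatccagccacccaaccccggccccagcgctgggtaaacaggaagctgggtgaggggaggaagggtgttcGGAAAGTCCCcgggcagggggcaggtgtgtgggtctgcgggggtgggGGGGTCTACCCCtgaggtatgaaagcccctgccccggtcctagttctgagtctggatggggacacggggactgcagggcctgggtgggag

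The loose motif was present in 50.8% of all 32851 promoters of the same length. In the set it was present in 19 of 29 promoters, which belong to 18 of the 26 genes with a promoter. It occurred in Tnfrsf1b, Tnfrsf14 and Ltb and not in this window of Tnfsf8. A narrower form (GGG, any 2 bases, TT, any 1 base, then CC), a subset of the loose motif, was in 4.79% of all promoters and in 3 of the 29, namely those of Ltb (as GGAAAGTCCC, the motif on the other strand), Tnfrsf9 and Tnfrsf25. A match is a stretch of letters and not a measured binding site.

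Tnfrsf1b (ENSMUSG00000028599.10, chromosome 4, 145213463 to 145246870, minus strand, GRCm38) had levels of 4.84, 5.47, 4.76 and 4.91 CPM in the pCtrl hippocampi. In the α-IgLON5#1 hippocampi it was at 19.1 CPM in mouse 8, 10.8 in mouse 9, 9.65 in mouse 16 and 9.05 in mouse 17. All 4 were above every control library of that tissue, the highest PBS library being at 5.19 CPM.

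The mean of Tnfrsf1b went from 5.0 ± 0.323 to 12.1 ± 4.69 CPM (SD, n = 4 and 4), a log2 fold change of 1.27 (SE 0.31, adjusted p = 0.0117, edgeR). Against PBS, at 4.30 ± 0.581 CPM (n = 5), the log2 fold change was 1.49 (adjusted p = 0.00125). Without mouse 8 it was 0.97 against pCtrl (adjusted p = 0.0811) and 1.19 against PBS (adjusted p = 0.0165).

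In the cortex, Tnfrsf1b was at 5.66, 5.11, 5.60, 4.39 and 4.95 CPM with pCtrl. The α-IgLON5#1 cortices held 30.8 CPM in mouse 8, 10.7 in mouse 9, 6.98 in mouse 16 and 8.00 in mouse 17. The groups did not overlap, and mouse 8 was far above the other libraries.

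In the cortex Tnfrsf1b had a log2 fold change of 1.45 against pCtrl (SE 0.29, adjusted p = 0.00240) and 1.51 against PBS (adjusted p = 0.00140). Without mouse 8 both calls held, at 0.73 (adjusted p = 0.0292) and 0.79 (adjusted p = 0.0128), each under 2-fold.

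Tnfrsf14 (ENSMUSG00000042333.16, chromosome 4, 154921933 to 154928563, minus strand) was a less abundant receptor. It was at 0.777, 0.809, 0.809 and 1.25 CPM in the pCtrl hippocampi, against 2.95, 1.63, 1.90 and 2.24 CPM in α-IgLON5#1 mice 8, 9, 16 and 17. The lowest α-IgLON5#1 library lay above the highest control.

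Tnfrsf14 in the hippocampus had a log2 fold change of 1.26 against pCtrl (SE 0.28, adjusted p = 0.00551) and 1.75 against PBS (adjusted p = 7.42e-05). This was the one hippocampal call against pCtrl that held without mouse 8, at 1.09 (adjusted p = 0.0334), and it held with each of the other libraries left out.

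In the cortex Tnfrsf14 was at 0.595, 0.426, 0.730, 0.527 and 0.765 CPM with pCtrl and at 2.64, 1.34, 1.02 and 1.24 CPM in α-IgLON5#1 mice 8, 9, 16 and 17, again without overlap. The log2 fold change was 1.32 (SE 0.28, adjusted p = 0.00434), and 0.94 without mouse 8 (adjusted p = 0.0667). The PBS cortices ranged from 0.470 to 1.20 CPM and overlapped the α-IgLON5#1 cortices, with a log2 fold change of 0.92 (adjusted p = 0.0631).

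Tnfsf8 (CD30 ligand; ENSMUSG00000028362.2, chromosome 4, 63831308 to 63861347, minus strand), a ligand of activated lymphocytes and myeloid cells, had at most 5 counts in any control library. The pCtrl cortices held 0, 3, 2, 0 and 2 counts and the PBS cortices 0, 1, 1, 1 and 2. The α-IgLON5#1 cortices held 41 counts in mouse 8, 13 in mouse 9, 6 in mouse 16 and 16 in mouse 17. In CPM the α-IgLON5#1 cortices lay above all PBS cortices, but mouse 16, at 0.143 CPM, lay below the highest pCtrl cortex at 0.160 CPM.

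Pooled over libraries, the cortical level of Tnfsf8 was 10.2 times that of pCtrl (95% exact interval 4.70 to 26.1, for counting error only). Against PBS the ratio was 15.3 (6.29 to 48.5). The edgeR log2 fold changes were 3.30 and 3.87, and 2.54 and 3.10 without mouse 8, where the former was no longer called. Tnfsf8 reached 10 counts in 5 libraries, all of α-IgLON5#1 mice, and so was tested only where it was high. Its calls in the cortex against both controls and in the hippocampus against PBS are therefore no independent evidence of a rise, and no p is given for them. The same holds for the pooled ratios and their intervals in both tissues, which also leave out the spread between mice. Mouse 8 gave 41 of the 76 counts pooled over the α-IgLON5#1 cortices.

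In the hippocampus Tnfsf8 had 15, 4, 6 and 10 counts in α-IgLON5#1 mice 8, 9, 16 and 17 against 5, 3, 1 and 5 with pCtrl. The CPM values did not overlap. The pooled ratio was 4.38 against pCtrl (2.30 to 8.81) and 6.65 against PBS (3.22 to 15.0). The edgeR log2 fold changes were 2.13 and 2.70, of which the latter passed and no longer did so without mouse 8 (2.15) or without PBS mouse 32, 33 or 74 (2.43 to 2.68).

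Tnfrsf8 (ENSMUSG00000028602.12, chromosome 4, 145267137 to 145315164, minus strand), the receptor of Tnfsf8, lies 20266 bases from Tnfrsf1b. In the hippocampus it was at 0.388, 0.978, 0.262 and 1.13 CPM with pCtrl and at 2.56, 1.58, 1.32 and 1.15 CPM in α-IgLON5#1 mice 8, 9, 16 and 17. The groups did not overlap, yet the lowest α-IgLON5#1 library was only just above the highest pCtrl library.

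The rise of Tnfrsf8 against pCtrl was 1.23 on the log2 scale (SE 0.36, adjusted p = 0.0371). The PBS hippocampi, at 1.5, 1.71, 1.32, 1.57 and 1.51 CPM, lay within the α-IgLON5#1 range, and the log2 fold change against PBS was 0.09 (adjusted p = 0.951). All pCtrl hippocampi were below all PBS hippocampi, with a log2 fold change of -1.14 (adjusted p = 0.101). The call against pCtrl was lost without pCtrl mouse 10 or 37, the pair with the lowest levels (adjusted p = 0.131 and 0.149), and without α-IgLON5#1 mouse 8 or 9 (adjusted p = 0.175 and 0.0813).

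In the cortex Tnfrsf8 did not pass the test in any comparison, with a log2 fold change of -0.09 against pCtrl. The difference between the tissues in the response of Tnfrsf8 was 1.32 on the log2 scale (SE 0.50, unadjusted p = 0.0140, adjusted p = 0.326 in edgeR).

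**Figure D3:**
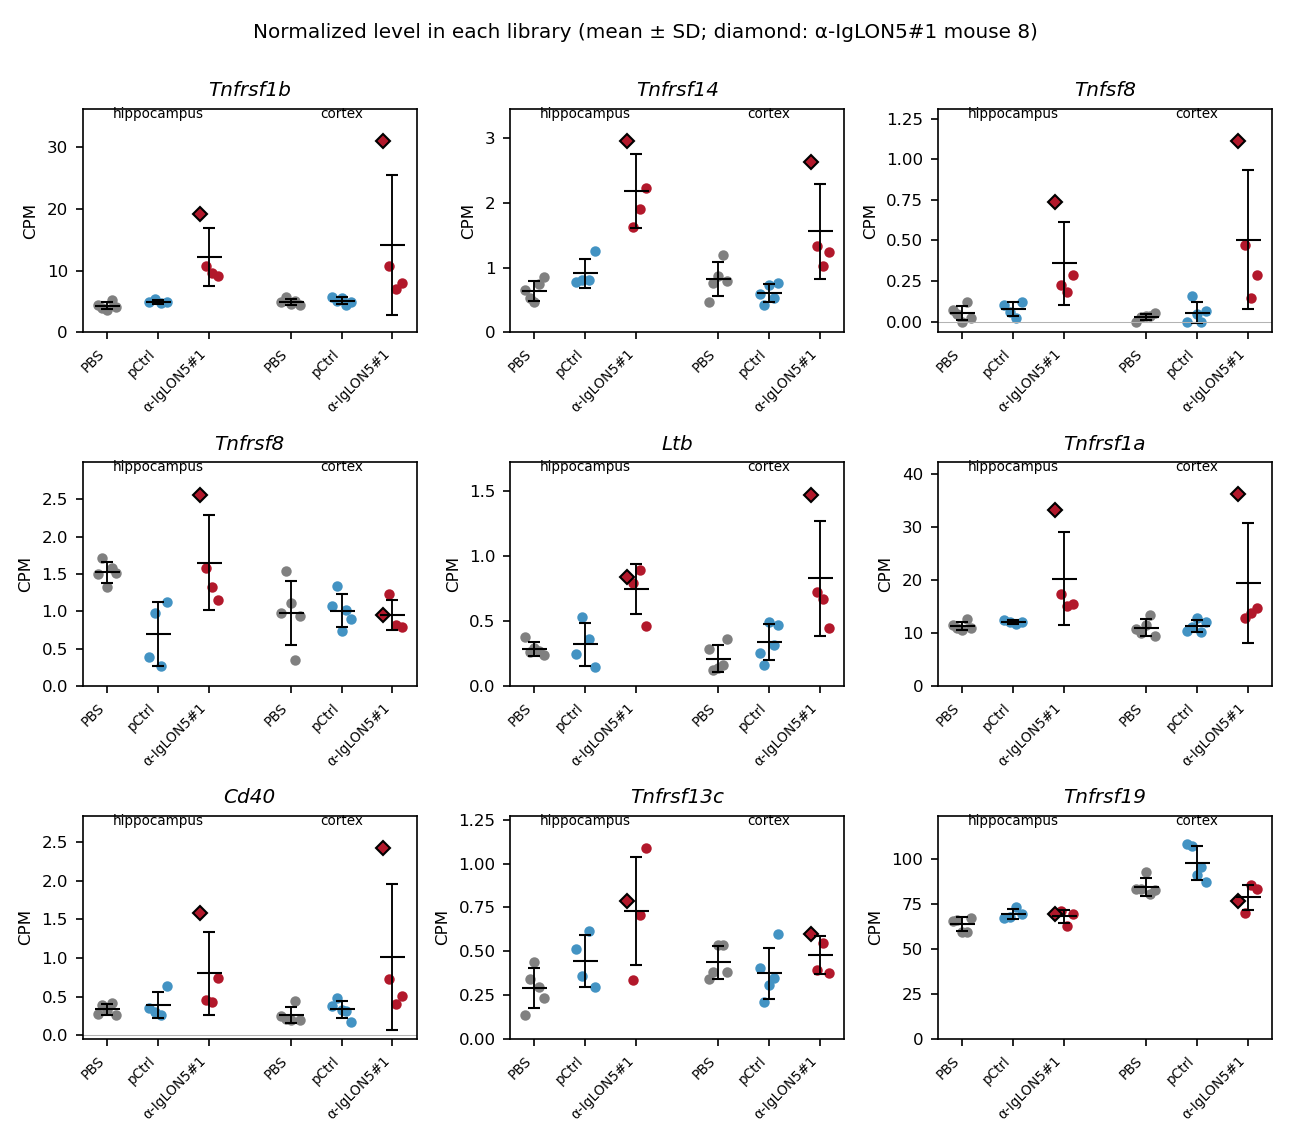
Level in CPM of 9 genes in every library by tissue and treatment, with the mean and SD as bars and α-IgLON5#1 mouse 8 as a diamond. The diamond is the highest α-IgLON5#1 library in both tissues for Tnfrsf1b, Tnfrsf14, Tnfsf8, Tnfrsf1a and Cd40, and in the cortex the α-IgLON5#1 points of Tnfrsf19 lie below all pCtrl points.

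Tnfrsf19 was the one gene of the set that fell against pCtrl. In the cortex it was at 108, 107, 91.0, 95.7 and 87.4 CPM with pCtrl and at 76.5, 70.1, 85.4 and 83.1 CPM in α-IgLON5#1 mice 8, 9, 16 and 17, without overlap. The log2 fold change was -0.31 (SE 0.07, adjusted p = 0.00501) and held with each library left out. The PBS cortices, at 80.2 to 92.9 CPM, overlapped both groups. The log2 fold change against PBS was -0.10 for α-IgLON5#1 (adjusted p = 0.741) and 0.21 for pCtrl (unadjusted p = 0.00223, adjusted p = 0.399, edgeR). In the hippocampus that of α-IgLON5#1 against pCtrl was -0.03 (adjusted p = 0.864).

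Both antibody groups can also be set against PBS, where the same α-IgLON5#1 libraries are used again, so these comparisons are not independent of those above. Without Tnfsf8, 5 of 25 tested genes rose against PBS in the hippocampus, 4 of them by more than 2-fold, where 3.81% of all genes rose and 2.56% passed the fold threshold. In the cortex 4 of 25 rose and 3 of them by more than 2-fold, against 2.97% and 2.24% of all genes. No gene of the set fell, against 0.474% of genes in the hippocampus and 0.0740% in the cortex.

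Beside Tnfrsf1b and Tnfrsf14, the hippocampal calls against PBS were Ltb, Tnfrsf13c and Tnfrsf1a. Ltb (ENSMUSG00000024399.5, chromosome 17, 35194439 to 35196320, plus strand) encodes lymphotoxin β, which forms a surface trimer with lymphotoxin α and binds Ltbr. It was at 0.837, 0.789, 0.889 and 0.458 CPM in α-IgLON5#1 mice 8, 9, 16 and 17 against 0.375, 0.262, 0.293, 0.267 and 0.235 CPM with PBS. Every α-IgLON5#1 library was above every PBS library.

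Ltb had a log2 fold change against PBS of 1.37 in the hippocampus (SE 0.38, adjusted p = 0.0357) and 1.92 in the cortex (SE 0.38, adjusted p = 0.00229). The hippocampal call was lost with any of 7 of the 9 libraries left out (adjusted p up to 0.111), whereas the cortical call held with each left out (1.49 to 2.22, adjusted p up to 0.0340). Against pCtrl the log2 fold change was 1.17 in the hippocampus and 1.21 in the cortex (adjusted p = 0.0666 in both).

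Tnfrsf13c, the B cell receptor for the survival factor BAFF, was at 0.787, 0.338, 0.705 and 1.09 CPM in α-IgLON5#1 hippocampi of mice 8, 9, 16 and 17 and at 0.136 to 0.440 CPM with PBS, so that 1 library overlapped. The fitted log2 difference was 1.34 (adjusted p = 0.00889), falling to 1.07 without mouse 17 (adjusted p = 0.0871). Against pCtrl it was 0.76 (adjusted p = 0.152), and in the cortex the values were 0.33 against pCtrl and 0.13 against PBS.

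Tnfrsf1a was at 33.3, 17.4, 15.0 and 15.4 CPM in the α-IgLON5#1 hippocampi of mice 8, 9, 16 and 17, above all 9 control hippocampi, which ranged from 10.6 to 12.6 CPM. The log2 fold change was 0.84 against PBS (SE 0.23, adjusted p = 0.0354) and 0.74 against pCtrl (adjusted p = 0.0671). Without mouse 8 it was 0.50 against PBS (adjusted p = 0.336). The same call ended without α-IgLON5#1 mouse 9 or PBS mouse 14, 32, 33 or 74 (0.81 to 0.89, adjusted p = 0.0511 to 0.0868). By DESeq2, Tnfrsf1a passed against pCtrl in both tissues (adjusted p = 0.0307 and 0.0221). In the cortex mouse 8 stood at 36.3 CPM and the other 3 α-IgLON5#1 libraries at 12.8 to 14.6 CPM, against 9.46 to 13.4 CPM with PBS, so that the groups overlapped, with a log2 fold change of 0.82 (adjusted p = 0.0528).

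In the cortex, Ltb, Cd40 and Tnfrsf9 rose against PBS beside Tnfrsf1b. Cd40, the costimulatory receptor of B cells and other antigen-presenting cells, was at 2.42 CPM in mouse 8 and at 0.722, 0.405 and 0.502 CPM in mice 9, 16 and 17, against 0.192 to 0.441 CPM with PBS. Its log2 fold change of 1.94 (adjusted p = 0.0134) was 1.04 without mouse 8 (adjusted p = 0.422). Against pCtrl it was 1.61 (adjusted p = 0.0503) in the cortex and 1.03 (adjusted p = 0.210) in the hippocampus.

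Tnfrsf9, a costimulatory receptor of activated T and NK cells, was at 0.897, 0.650, 0.643 and 0.574 CPM in α-IgLON5#1 cortices of mice 8, 9, 16 and 17 and at 0.269 to 0.441 CPM with PBS. The pCtrl cortices, at 0.466 to 0.772 CPM, were likewise all above the PBS cortices. The log2 fold change against PBS was 0.95 for α-IgLON5#1 (adjusted p = 0.0299) and 0.82 for pCtrl (adjusted p = 0.402), and that of α-IgLON5#1 against pCtrl was 0.13. The call was lost without α-IgLON5#1 mouse 8 (0.81, adjusted p = 0.218) and without PBS mouse 14, 32 or 33 (0.88 to 0.96, adjusted p = 0.0672 to 0.0964).

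**Figure D4:**
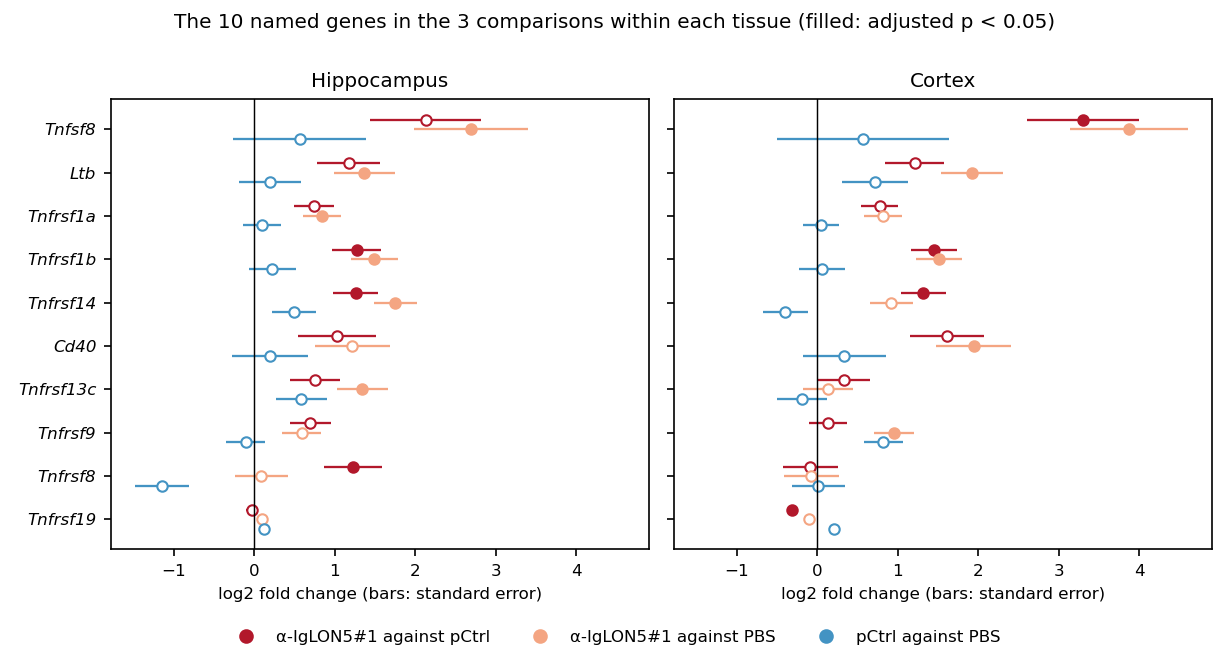
Log2 fold changes, with standard errors as bars, of the 10 genes that passed the test in at least 1 comparison within a tissue, for α-IgLON5#1 against pCtrl, α-IgLON5#1 against PBS and pCtrl against PBS. Filled points passed an adjusted p of 0.05. The points of pCtrl against PBS are all open, and that of Tnfrsf8 in the hippocampus lies at -1.14.

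Between the control groups no gene of the set passed the test in either tissue by edgeR, while 2 in the hippocampus and 3 in the cortex had an unadjusted p under 0.05 (14% and 8.14% of all genes). Over all genes, 0.133% were higher and 0.0592% lower with pCtrl in the hippocampus, and 0 genes passed in the cortex, where DESeq2 called 5 higher and 6 lower. DESeq2 called Tnfrsf8 lower in the pCtrl hippocampus and no other member in either tissue. The test of whether the response to α-IgLON5#1 against pCtrl differed between hippocampus and cortex called 0 of the 26, and 0 of all genes, by edgeR (0 of the 26, and 18 and 18 genes in the 2 directions, by DESeq2). At an unadjusted p under 0.05 it gave 2 of the 26, Tnfrsf8 and Tnfrsf19, and 10.6% of all genes.

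The other 16 tested genes passed in no comparison within a tissue in the main edgeR fit. With a library left out, Fas passed in the cortex against pCtrl (1.32, adjusted p = 0.0450, without α-IgLON5#1 mouse 17). Ltbr, Tnfrsf10b, Tnfrsf12a, Tnfrsf4 and Tnfsf9 also passed in some such fits. DESeq2 called 6 genes of the set higher against pCtrl in the cortex, not all of them described above. Among the death domain receptors, Fas had log2 fold changes against pCtrl of 0.84 in the hippocampus (adjusted p = 0.173) and 1.1 in the cortex (adjusted p = 0.0975), and its 4 α-IgLON5#1 hippocampi, at 1.86 to 4.72 CPM, were all above the pCtrl hippocampi at 1.23 to 1.69 CPM but overlapped the PBS hippocampi at 0.777 to 2.26 CPM. Tnfrsf10b, Tnfrsf21 and Tnfrsf25 were between 0.00 and 0.67 in both tissues. Tnfrsf21, with the highest level of the set, had the narrowest errors among them (log2 fold change 0.14, SE 0.06 in the hippocampus and 0.00, SE 0.06 in the cortex).

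Among the TRAF-binding receptors, Ltbr, the receptor of lymphotoxin and Tnfsf14, had log2 fold changes of 0.51 in the hippocampus (adjusted p = 0.110) and 0.45 in the cortex (adjusted p = 0.216). All its α-IgLON5#1 hippocampi, at 10.3 to 16.7 CPM, were above the controls at 7.36 to 9.18 CPM. Tnfrsf4 (OX40), a T cell costimulator, was at 0.72 and 0.73 (adjusted p = 0.127 and 0.184). Cd27 and Tnfrsf18, both costimulatory receptors of T cells, were between 0.19 and 0.52, and Tnfrsf11a and Tnfrsf12a between -0.03 and 0.09. Tnfrsf18 overlaps the antisense gene Gm16008.

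The ligands Tnfsf9, Tnfsf10 and Tnfsf12 had log2 fold changes between 0.06 and 1.1 against pCtrl, the highest being that of Tnfsf9 in the cortex (SE 0.54, adjusted p = 0.331). The decoy receptors Tnfrsf11b, Tnfrsf22 and Tnfrsf23 were between -0.84 and 0.27, the lowest being that of Tnfrsf11b in the hippocampus (SE 0.52, adjusted p = 0.363). Without Tnfsf8, 6 of 25 tested genes had all α-IgLON5#1 hippocampi above all pCtrl hippocampi, a separation seen for 6.68% of all genes. In the cortex 2 were separated upwards and 1 downwards, against 3.68% and 2.67% of all genes. Against PBS, 7 of 25 were separated upwards in the hippocampus and 4 in the cortex, where 4.49% and 3.14% of all genes were.

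The 10 genes under the count filter were 9 ligands and Tnfrsf26, and they were not tested. Tnfsf14, the ligand of Tnfrsf14 and Ltbr, had at most 3 counts in the 19 control libraries and 17 counts in the cortex of α-IgLON5#1 mouse 8, with 33 counts in 8 α-IgLON5#1 libraries against 11 in the controls. Cd70, the ligand of Cd27, had up to 13 counts in an α-IgLON5#1 library and up to 2 in a control. Fasl, the ligand of Fas, reached 14 and 9 counts, Tnfsf15 11 and 9, Tnfsf11 7 and 5, and Lta, which encodes lymphotoxin α, 5 and 4.

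Tnfrsf26, next to Tnfrsf22 on chromosome 7, reached 10 counts in an α-IgLON5#1 library and 5 in a control. Cd40lg, Tnfsf4 and Tnfsf18, the ligands of Cd40, Tnfrsf4 and Tnfrsf18, had at most 2, 2 and 1 counts in any α-IgLON5#1 library and at most 1, 1 and 3 in any control. No difference between groups was tested at these counts.

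Of the 36 genes, 9 lie on chromosome 4 and 7 on chromosome 17, many of them close together. The neighbours on chromosome 4 include Tnfrsf1b and Tnfrsf8, Tnfrsf4 and Tnfrsf18 (9551 bases apart), and Tnfsf15 and Tnfsf8 (86194 bases apart). On chromosome 17 the interval from 57105325 to 57194177 holds Tnfsf9, Cd70 and Tnfsf14, and Ltb lies 6844 bases from Lta with Tnf between them. On chromosome 6, Cd27, Ltbr and Tnfrsf1a follow each other between 125232622 and 125362484.

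Tnf, the founding ligand of the family and the ligand of Tnfrsf1a and Tnfrsf1b, lies outside the naming rule. Its counts ranged from 0 to 3 in pCtrl and from 6 to 148 in α-IgLON5#1 hippocampi, and from 0 to 1 and 5 to 440 in the cortices. Like Tnfsf8, it came through the count filter by α-IgLON5#1 libraries alone, so that its calls in both tissues are given with no p, and without mouse 8 it passed in the cortex and not in the hippocampus. The other 5 superfamily genes outside the rule, Eda, Edar, Eda2r, Relt and Ngfr, did not pass the test in either tissue.

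Downstream of the receptors, the NF-κB feedback genes had the highest share of calls in the cortex, where 5 of 8 rose against pCtrl. The largest log2 fold changes were those of Bcl3 (3.61, adjusted p = 0.00365), Nfkbie (1.36, adjusted p = 0.0216) and Tnfaip3 (1.16, adjusted p = 0.0220), followed by Nfkbiz and Nfkbia. These encode atypical or inhibitory IκB proteins, and Tnfaip3 the ubiquitin-editing brake A20. In the hippocampus 2 of 8 rose, Bcl3 (2.70, adjusted p = 0.0261) and Nfkbiz (1.16, adjusted p = 0.00203). Without mouse 8, Nfkbiz was the one call of this list in either tissue (0.72, adjusted p = 0.0391 in the cortex and 1.07, adjusted p = 0.0107 in the hippocampus).

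Of 13 NF-κB kinases and factors, Nfkb2 (1.69, adjusted p = 0.00427), Relb (0.94, adjusted p = 0.0384) and Nfkb1 (0.52, adjusted p = 0.0433) rose in the cortex. Nfkb2 and Relb form the non-canonical dimer reached from receptors such as Ltbr and Cd40. In the hippocampus Nfkb2 rose alone (1.60, adjusted p = 0.0101). None of the 13 passed without mouse 8 in either tissue, where Nfkb2 was at 0.92 in the cortex (adjusted p = 0.106) and 1.00 in the hippocampus (adjusted p = 0.103). The list's median was 0.06 in the cortex and 0.14 in the hippocampus.

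Of 19 adaptors and death signalling genes, 5 rose in the cortex, with the largest log2 fold changes in Traf1 (1.87, adjusted p = 0.00728), the ubiquitin ligase Birc3 (1.81, adjusted p = 0.00574) and the necroptosis kinase Ripk3 (1.73, adjusted p = 0.0161), followed by Casp8 and its inhibitor-like relative Cflar. In the hippocampus Birc3 (1.38, adjusted p = 0.0434), Casp8 (0.82, adjusted p = 0.00390) and Cflar (0.40, adjusted p = 0.0199) rose, and the caspase inhibitor Xiap fell by 0.36 on the log2 scale (adjusted p = 0.00423). Without mouse 8, Cflar passed in the cortex (0.40, adjusted p = 0.0129) and Casp8 (0.80, adjusted p = 0.0132) and Xiap (-0.31, adjusted p = 0.0284) passed in the hippocampus.

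Markers of several immune cell types were also higher with α-IgLON5#1, not all in the same mice as the receptors. In the hippocampus 6 of 8 microglial markers rose against pCtrl, and their summed level was 423 to 736 CPM with α-IgLON5#1 against 322 to 369 CPM with pCtrl. In the cortex 1 of 8 (Aif1) rose, with sums of 411 to 450 CPM against 325 to 405 CPM. Of 8 markers of infiltrating myeloid cells, 2 rose in the hippocampus and 4 in the cortex, with sums of 9.24 to 47.7 CPM against 14.4 to 20.6 CPM and of 11.2 to 66.8 CPM against 10.8 to 17.4 CPM.

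Markers of B cells, 7 of 8 of them tested, rose for 4 genes in the hippocampus and 2 in the cortex, with sums of 3.89 to 10.9 CPM against 3.38 to 4.13 CPM and of 3.97 to 9.29 CPM against 2.38 to 3.52 CPM. Of 9 T and NK cell markers 3 were tested and 1 rose in each tissue, with sums of 3.31 to 5.96 CPM against 1.67 to 3.37 CPM and of 2.53 to 5.90 CPM against 1.53 to 1.93 CPM. Among the markers that rose, Ly6c2 of the myeloid list and Ms4a1 of the B cell list came through the count filter by α-IgLON5#1 libraries alone. No marker of these 4 lists was at 0 in all libraries of a group.

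Of 7 plasma cell markers tested, 4 rose in the hippocampus and 1 in the cortex, and of 6 astrocyte markers Gfap rose in both tissues. No marker of neurons, oligodendrocytes, endothelium, choroid plexus or fibroblasts passed, and of the pituitary markers Pomc fell in the hippocampus.

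α-IgLON5#1 mouse 8 had the highest sums of the 4 α-IgLON5#1 mice for infiltrating myeloid cells, B cells and T and NK cells in both tissues, and the lowest for microglia (423 CPM in the hippocampus and 411 CPM in the cortex). Mouse 8 was also the highest of the 4 in hippocampus and cortex for astrocytes (3742 and 3442 CPM), meningeal fibroblasts (275 and 205 CPM) and pituitary (41.3 and 45.5 CPM). In the hippocampus of mouse 9 the infiltrating myeloid sum of 9.24 CPM was below all pCtrl libraries, as was the fibroblast sum of 54.8 CPM. Without mouse 8, the markers that rose in hippocampus and cortex were 6 and 1 of microglia, 2 and 2 of infiltrating myeloid cells, 1 and 1 of B cells, 2 and 1 of plasma cells and 1 and 0 of T and NK cells. The myeloid calls were Itgax and Ly6c2 in both tissues, where those of Ly6c2, tested through α-IgLON5#1 libraries alone, are no independent evidence of a rise. Of the rest of that list, none of which passed, S100a8, S100a9 and Cd209a had log2 fold changes below 0 in both tissues. Ccr2 and Plac8 were above 0 in both, and Mrc1 was below 0 in the hippocampus alone. The part of the cell types in the changes of the receptors and ligands was not tested.

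Fewer genes of the set were called against pCtrl without mouse 8. Without its library 1 of 26 rose in the hippocampus (Tnfrsf14) and 1 rose (Tnfrsf1b) and 1 fell (Tnfrsf19) in the cortex, while 518 and 308 of all genes rose. With α-IgLON5#1 mouse 16 left out, 6 of 26 rose in the hippocampus, while 1057 of all genes rose. With mouse 17 left out, 7 of 26 rose in the cortex, while 579 of all genes rose. The counts of 6 and 7 include Tnfsf8. The median log2 fold change of all 26 tested genes, Tnfsf8 included, was 0.33 in the hippocampus and 0.19 in the cortex without mouse 8. With mouse 8 it was 0.52 and 0.37.

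The calls against pCtrl also depended on which libraries shared the fit. When the 9 cortices of these groups were fitted alone, 0 of 25 tested genes passed, while 297 of all genes rose, and the log2 fold changes were 1.48 for Tnfrsf1b (adjusted p = 0.0996), 1.34 for Tnfrsf14 (adjusted p = 0.0528) and -0.29 for Tnfrsf19 (adjusted p = 0.10). In the hippocampus fitted alone, 2 genes passed, and Tnfrsf8 was the one that did not (1.22, adjusted p = 0.178). The α-IgLON5#1 mice carried numbers from 8 to 17, and with all libraries outside these numbers removed 0 of 26 passed in either tissue, against 54 of all genes that rose in the hippocampus and 10 in the cortex. The fold changes kept their size there, with 1.22 and 1.38 for Tnfrsf1b (adjusted p = 0.353 and 0.237) and 1.45 and 1.37 for Tnfrsf14 (adjusted p = 0.144 and 0.131) in hippocampus and cortex.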

How the data were processed

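Bulk RNA-seq libraries of hippocampus and cortex were made with a TruSeq Stranded kit, and reads were aligned to GRCm38 with STAR (version 1.4.0 in the submitters' processing notes). The authors deposited raw read counts per gene of the GENCODE M21 annotation, 1 column per library, not normalized. The counting program and its strand setting are not given in the sources used here. Every column matched 1 sample by its label.

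Genes that reached 10 counts in 4 or more of the 27 libraries were tested with edgeR 4.0.16 in R 4.3.3 (TMM normalization, quasi-likelihood test, 6 groups of tissue and treatment in 1 fit, Benjamini-Hochberg adjustment over 20271 genes). A gene was called at an adjusted p under 0.05, and the fold threshold was 2. CPM used TMM-scaled library sizes, and CPM per kilobase the exon length from the annotation. Replicates are separate mice. DESeq2 1.42.0, RLE size factors, other count filters, smaller fits, a replicate block and each library left out were alternatives. Tables were made with Python 3.11.15, pandas 2.3.3 and scipy 1.17.1. The fit was tested on simulated data.

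Hippocampus and cortex of 13 mice came from the same animal. The main fit did not use this pairing, and the mouse as a replicate block was an alternative for comparisons of tissues. The correlation of paired deviations from the group means ran from -0.0498 to 0.443 (median 0.194, 8 of 13 above 0.1). No 2 libraries of a group agreed within counting error (smallest chi-square per degree of freedom 4.82).

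Genes named with their libraries were those that passed the test in at least 1 comparison within a tissue, or in the comparison of PBS tissues. The genes, roles and lists were chosen with earlier results of these data known. Exon overlap with other genes was read from the annotation. Promoters were RefSeq windows, with none used here for Tnfsf4, Tnfrsf11b, Tnfsf9, Tnfrsf10b, Tnfrsf26, Tnfsf12, Cd40lg, Tnfrsf22, Cd40 and Cd70. Intervals of count ratios cover counting error only.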

Additional observations from a re-analysis of the deposited data

Results flagged for a closer look

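In 84 groups of 4 or 5 libraries, 14 genes in 6 groups each, 1 library stood far from the others in 9, judged by its gap to the nearest library as a share of the group's range. For independent groups, chance alone would flag about 1 in 20. These groups share mice, and their genes were chosen by tests on the same libraries, so the 9 cannot be set against that rate. Of the 9 libraries, 5 were from α-IgLON5#1 mouse 8. In this mouse Tnfrsf1b, the TNF receptor without a death domain, was at 19.1 CPM in the hippocampus and 30.8 CPM in the cortex, and the next libraries were at 10.8 and 10.7 CPM. Tnfrsf1a was at 33.3 and 36.3 CPM in the same tissues, next to 17.4 and 14.6 CPM. Cd40 was at 2.42 CPM in the cortex, next to 0.722 CPM.

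The other 4 were in control groups. With pCtrl, Tnfrsf14 was at 1.25 CPM in the hippocampus of mouse 75, next to 0.809 CPM. With PBS, Cd40 was at 0.441 CPM in the cortex of mouse 38, Tnfrsf19 at 92.9 CPM in the cortex of mouse 33 and Tnfrsf25 at 38.6 CPM in the hippocampus of mouse 14.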

How the results depend on the processing

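RLE size factors changed no call of the 26 genes and no level per length by more than the spread between replicates. Among the significant genes of the set, counts moved by over 1.5 times as follows. DESeq2 called 6 higher genes against pCtrl in the cortex (5 by more than 2-fold) and 1 lower in the hippocampus for pCtrl against PBS (1 by more than 2-fold). With no filter beyond 1 count, 5 rose against pCtrl in the cortex, and 1 gene was over 2-fold higher in the PBS cortex than hippocampus. With at least 10 counts in every library, 1 rose in the cortex against pCtrl and 1 against PBS (1 by more than 2-fold in each), and 2 in the hippocampus against PBS (1 by more than 2-fold), where fewer genes were tested. With only the groups compared in the fit, 0 rose and 0 fell in the cortex against pCtrl, 1 rose in the cortex against PBS (1 by more than 2-fold) and 3 rose by more than 2-fold in the hippocampus against PBS. With only mice 8 to 17, which left fewer controls, 0 rose against pCtrl in the hippocampus and in the cortex, and 0 fell in the cortex. The mouse as a replicate block gave 5 genes higher in PBS cortex and 3 lower, and it called 0 of the set (2 of all genes) in the interaction of tissue and treatment. These counts include Tnfsf8.

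With 1 library left out at a time, 1 to 6 genes rose against pCtrl in the hippocampus (1 to 4 by more than 2-fold) and 1 to 7 in the cortex (0 to 6), where 1 fell each time. Against PBS, 3 to 7 rose in the hippocampus (3 to 5) and 3 to 9 in the cortex (2 to 6). These counts also include Tnfsf8. Over all genes, 472 to 1057 rose against pCtrl in the hippocampus and 308 to 784 in the cortex, and 552 to 864 and 355 to 703 against PBS. For pCtrl against PBS in the hippocampus 0 to 1 fell, and 2 to 3 genes were higher in PBS cortex than hippocampus. Signs turned for 3 fold changes against pCtrl that passed in no fit. With 1 library left out, Tnfrsf19 in the hippocampus ran from -0.0498 to 0.00898 (above 0 without α-IgLON5#1 mouse 16, and 0.000399 without pCtrl mouse 37), and it was 0.0125 with only mice 8 to 17. In the cortex Tnfrsf8 ran from -0.22 to 0.0147 (above 0 without pCtrl mouse 11), and Tnfrsf9 from -0.0136 (without α-IgLON5#1 mouse 8) to 0.22. The causes were not tested. Low counts limit the ligands most, since 9 of 14 were under the filter.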
